A study of Mus musculus with 4 samples.

Results

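The AP-1 transcription factor family was followed across all 4 arrays of a study of chronic rosiglitazone treatment in the mouse aorta. Its members here were 10 genes, namely Fos, Fosb, Fosl1 and Fosl2 of the Fos family, Jun, Junb and Jund of the Jun family, and the related factors Atf3, Maff and Batf. They were found as every probe set whose only gene symbol in the platform's probe table is 1 of these names, and all 10 were present, on 14 of the table's 12488 probe sets and among 8252 named genes. RNA was pooled from the aortas of adult male C57BL/6J mice. The rosiglitazone group received 25 mg/kg of the drug, a PPARγ agonist, each day for 21 days, and the vehicle group received vehicle over the same 21 days. Each group had 2 arrays, numbered 1 and 2 for rosiglitazone and 3 and 4 for vehicle. Nothing in the labels says that the pools of a group were separate, so the p-values reflect array-to-array spread alone, and that spread may be technical. How many mice made up a pool, which segment of the aorta was taken and whether surrounding fat was removed are not given in the sources used here. Fat markers such as Adipoq were bright on all 4 arrays.

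AP-1 is a dimer of basic leucine zipper proteins. Fos proteins pair with Jun proteins and cannot form stable dimers among themselves, whereas Jun proteins can. The dimers bind a short palindrome, TGANTCA, or the cyclic AMP response element TGACGTCA, and Atf3 and the small Maf proteins join overlapping sets of dimers. Many of these genes are immediate-early genes, transcribed within minutes of a growth factor, mechanical stretch, cell injury or an inflammatory signal, and in the vessel wall they are known for responding to injury and pressure.

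In outline, Atf3 and Fos had the largest differences relative to their spread, and both were lower with rosiglitazone, by 2.18-fold and 2.69-fold, on both arrays of the group. Jun, Junb and Fosl2 had overlapping groups, and Jund was nearly level. No member (0 of 7 probe sets tested) passed an adjusted p of 0.05 in limma, against 26 of 7134 probe sets over the whole table, or 0.364% (0.322% lower and 0.0421% higher). At an unadjusted p under 0.05 there were 2 member probe sets, both lower, against 5.76% of all probe sets that were lower at that level. The vehicle arrays lay wholly above the rosiglitazone arrays for 3 of the 7, against 21.8% of all probe sets tested, and wholly below them for 0 of the 7, against 19.0%. All 7 log2 fold changes were below 0, with a median of -0.49, while over all probe sets 51.9% were below 0 and the median was -0.024. Leaving out rosiglitazone replicate 1 made the median of the 7 -0.28, and leaving out rosiglitazone replicate 2 made it -0.67. With 1 array left out, Fos ranged from -1.68 to -1.18 and Atf3 from -1.16 to -1.09, while Fosl2 ranged from -2.27 to 1.08. Each such fit leaves 1 array in a group and shows only how far a value moves. Markers of several cell types differed on the same arrays, some lower and some higher with rosiglitazone, and their part in these values was not tested. Macrophage markers summed to 23672 and 24091 under rosiglitazone and to 65259 and 69365 under vehicle, and in pooled tissue fewer cells of a type and less RNA per cell cannot be told apart. A fold change here is the rosiglitazone mean minus the vehicle mean on the log2 scale, after intensities under a floor of 148 had been raised to it. The other 7 member probe sets had a mean under the filter intensity of 414 and were not tested, so the 7 tested are those bright enough to be tested and not the whole family. Among the 7, Fos 160901_at passed the filter only through its vehicle arrays. Its place in the counts and the median above thus depends on the group where it was high.

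**Figure D1:**
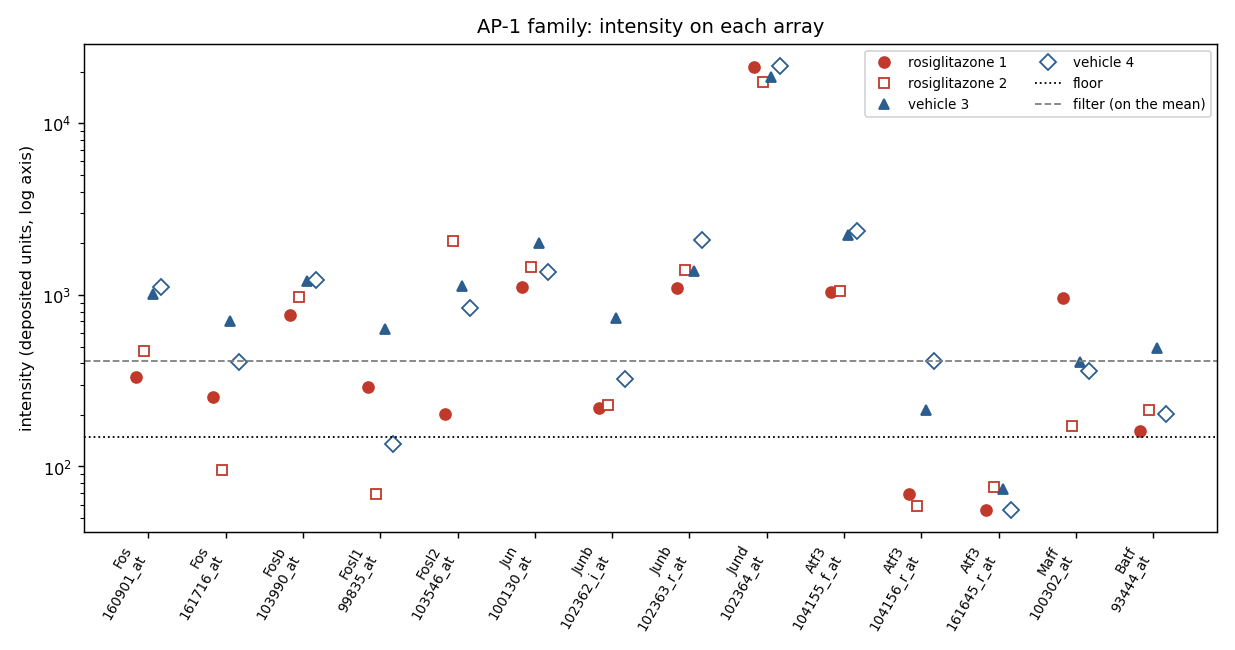
Intensity of each of the 14 AP-1 family probe sets (log axis, deposited units) on the 2 rosiglitazone arrays (red) and the 2 vehicle arrays (blue), with the floor of 148 dotted and the filter intensity of 414 dashed. For Atf3 104155_f_at the rosiglitazone arrays read 1033 and 1059 and the vehicle arrays 2221 and 2344, while the points of Fosl2 and Maff are spread most widely within the rosiglitazone group.

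Fos, the founding member of its family, was measured by 2 probe sets. On 160901_at its intensity was 331 and 469 under rosiglitazone, against 1018 and 1105 under vehicle. Both treated arrays were thus low, and the groups were far from overlapping. The mean log2 intensity was 8.62 ± 0.36 in the treated group, against 10.05 ± 0.084 under vehicle (SD, n = 2 each). The treated mean alone lay under the filter, so this probe set was tested only because of its vehicle arrays. The log2 fold change was -1.43 ± 0.56 (SE) and a 95% interval from -2.69 to -0.17, with an unadjusted p of 0.0302 that did not pass the adjustment (limma, adjusted p = 0.386). The other Fos probe set, 161716_at, read 253 and 96 with rosiglitazone and 701 and 404 with vehicle. It was below the filter and so not tested, and its vehicle arrays were again both above its rosiglitazone arrays. The Fos probe sets therefore ordered the groups alike, although the dimmer one had an array under the floor. Leaving out 1 array moved the log2 fold change of 160901_at between -1.68, without rosiglitazone replicate 2, and -1.18, without rosiglitazone replicate 1.

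Atf3, a stress-induced factor that binds cyclic AMP response elements and often represses its targets, had the smallest unadjusted p of the family, 0.00707 in limma across all probe sets, which ranked 232 of 7134. Its probe set 104155_f_at read 1033 and 1059 with rosiglitazone and 2221 and 2344 with vehicle. Within each group the arrays were nearly equal, and the groups were well apart. The mean log2 intensity was 10.03 ± 0.025 and 11.16 ± 0.055 (SD, n = 2 each), a log2 fold change of -1.13 ± 0.33 (SE) and a 95% interval from -1.86 to -0.39. This did not pass over all probe sets (limma, adjusted p = 0.218), and the adjusted p ranged from 0.202 to 0.745 over 11 other settings and array subsets. The fold change itself stayed between -1.16 and -1.09 with any 1 array left out. The suffix f marks a probe set that the manufacturer designed against a sequence family, so transcripts other than Atf3 may contribute to it.

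The other Atf3 probe sets were dim. On 104156_r_at rosiglitazone gave 69 and 59, under the floor, and vehicle gave 213 and 414, so the vehicle arrays were again the higher. On 161645_r_at rosiglitazone gave 56 and 76 and vehicle 74 and 56, all under the floor, and this probe set gave no measurable level in either group. The suffix r marks probe sets for which the manufacturer's selection rules had been relaxed. Atf3 was thus lower with rosiglitazone on 2 of its 3 probe sets and unmeasurable on the third. Those 2 are listed under the same sequence record, so they are not independent measures.

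The promoter letters of Fos and Atf3 are shown because these were the members with the lowest rosiglitazone readings relative to vehicle, and that of Jun because it is the family's textbook case of an AP-1 gene with AP-1-like sites of its own. Each is the 250 bases before the annotated start, 5′ to 3′ on the gene's strand, from RefSeq's GRCm38.p6 tables, with capitals for matches to the motifs searched. The Atf3 window is chr1:191183334-191183583 on the minus strand, that of Fos chr12:85473640-85473889 on the plus strand, and that of Jun chr4:95052223-95052472 on the minus strand.
Atf3: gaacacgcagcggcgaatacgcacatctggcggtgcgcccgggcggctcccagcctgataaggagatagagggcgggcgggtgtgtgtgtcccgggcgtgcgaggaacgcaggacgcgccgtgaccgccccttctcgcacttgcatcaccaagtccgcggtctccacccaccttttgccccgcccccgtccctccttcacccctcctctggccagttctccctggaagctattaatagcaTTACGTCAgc
Fos: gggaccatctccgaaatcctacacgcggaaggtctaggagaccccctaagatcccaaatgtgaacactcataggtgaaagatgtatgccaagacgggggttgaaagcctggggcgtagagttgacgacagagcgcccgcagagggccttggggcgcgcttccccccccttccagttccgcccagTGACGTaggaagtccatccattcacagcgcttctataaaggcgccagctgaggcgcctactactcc
Jun: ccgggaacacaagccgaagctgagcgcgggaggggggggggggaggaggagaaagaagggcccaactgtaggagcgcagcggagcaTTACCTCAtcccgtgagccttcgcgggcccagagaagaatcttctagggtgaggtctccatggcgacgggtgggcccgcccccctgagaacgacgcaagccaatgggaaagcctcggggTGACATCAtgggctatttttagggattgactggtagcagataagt

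The motifs searched on both strands were TGANTCA, the AP-1 palindrome, TGACGTCA, the full cyclic AMP response element, TNACNTCA, a relaxed form that takes in the full element and its known variants in Jun and Atf3, TGACGT, the element's left part, and the CArG box that serum response factor binds. A TTACGTCA ran from 10 to 3 bases before the start of Atf3, and it overlaps a TGACGT on the other strand. In Fos a TGACGT lay from 66 to 61 bases before the start. In Jun a TTACCTCA lay from 164 to 157 bases and a TGACATCA from 45 to 38 bases before the start. Of 32851 promoter windows of the same length in the table, 14% held TNACNTCA, 6.47% TGACGT, 6.75% TGANTCA, 1.55% TGACGTCA and 1.47% a CArG box. The members had 11 windows for 9 genes, since Maff has 3 annotated starts, so counts of genes are not on the scale of the shares of windows. TNACNTCA was found in 4 genes, namely Atf3, Jun, Jund and Maff, where the matches of Atf3 and Jun follow from the choice of the motif, and TGACGT in 4, namely Atf3, Batf, Fos and Maff. The full TGACGTCA was found in 1, from 29 to 22 bases before a start of Maff. TGANTCA and the CArG box were found in 0 of the 11 windows of these members. Sequence outside the windows was not searched. The absence of a match therefore does not show that Fos or any other member lacks a CArG box or a TGANTCA further upstream. These matches describe letters in a short window, and the array data do not show which factors bound them. Atf3 and Fos had matches and, on the probe sets tested, groups that did not overlap, while Jun, Jund, Maff and Batf had matches and overlapping groups. Fosb had no match and groups that did not overlap, and Fosl2 had no match and overlapping groups. Junb had no match, and its probe sets differed in overlap. Whether matches go with the differences was not tested.

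Fosb, which pairs with Jun proteins and whose short splice form is known to be long-lived, read 765 and 978 with rosiglitazone and 1212 and 1217 with vehicle on 103990_at. The groups did not overlap, and the vehicle arrays were almost identical. The log2 fold change was -0.49 ± 0.41 (SE) and a 95% interval from -1.41 to 0.43 (limma, adjusted p = 0.726). Leaving out rosiglitazone replicate 1 gave -0.31 and leaving out rosiglitazone replicate 2 gave -0.67. The interval takes in both no difference and one as large as that of Atf3.

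Fosl1, which encodes Fra-1, a Fos protein without the transactivation domain of Fos, was dim and uneven. Its probe set 99835_at read 289 and 69 with rosiglitazone and 634 and 135 with vehicle, with an array of each group under the floor. The groups overlapped and the probe set was below the filter. Fosl2, which encodes the related Fra-2, differed more between arrays of 1 group than any other member. On 103546_at it read 201 and 2052 with rosiglitazone and 1125 and 835 with vehicle, so the rosiglitazone arrays held both the lowest and the highest reading. Its log2 fold change was -0.59 ± 0.92 (SE) (limma, adjusted p = 0.861). That value turned to 1.08 without rosiglitazone replicate 1 and became -2.27 without rosiglitazone replicate 2, so no direction can be given for Fosl2.

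Among the Jun genes, Jun itself, the partner that can act as a homodimer and is activated by Jun N-terminal kinases, read 1108 and 1452 with rosiglitazone and 2018 and 1367 with vehicle on 100130_at. The ranges overlapped, with only vehicle replicate 3 standing above the rest. The log2 fold change was -0.39 ± 0.37 (SE) and a 95% interval from -1.23 to 0.45 (limma, adjusted p = 0.768), and it was -0.11 without vehicle replicate 3 and -0.67 without vehicle replicate 4.

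Junb, a Jun protein that often opposes Jun in growth control, had 2 probe sets. On 102363_r_at it read 1102 and 1402 with rosiglitazone, against 1376 and 2097 with vehicle, a log2 fold change of -0.45 ± 0.37 (SE) and a 95% interval from -1.29 to 0.39 (limma, adjusted p = 0.723). It was -0.15 without vehicle replicate 4 and -0.75 without vehicle replicate 3. On 102362_i_at it read 218 and 229 with rosiglitazone and 732 and 322 with vehicle, with no overlap but below the filter. The suffix i marks an incomplete probe set. The Junb probe sets, which are listed under the same sequence record, thus had the same sign and differed in whether the groups overlapped.

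Jund, the Jun gene that most resting tissues express steadily, gave 21187 and 17321 with rosiglitazone and 18729 and 21542 with vehicle on 102364_at. The arrays of the groups were interleaved, with vehicle replicate 4 and rosiglitazone replicate 1 nearly equal at the top. Its log2 fold change was -0.068 ± 0.21 (SE), and it changed sign when arrays were centred on their medians (0.015), without rosiglitazone replicate 2 (0.077) and without vehicle replicate 4 (0.033). The 95% interval from -0.54 to 0.40 was the narrowest of the 7 and does not reach the estimates of Fos or Atf3 (limma, adjusted p = 0.937). Whether Jund differed from these genes in its response was not tested.

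**Figure D2:**
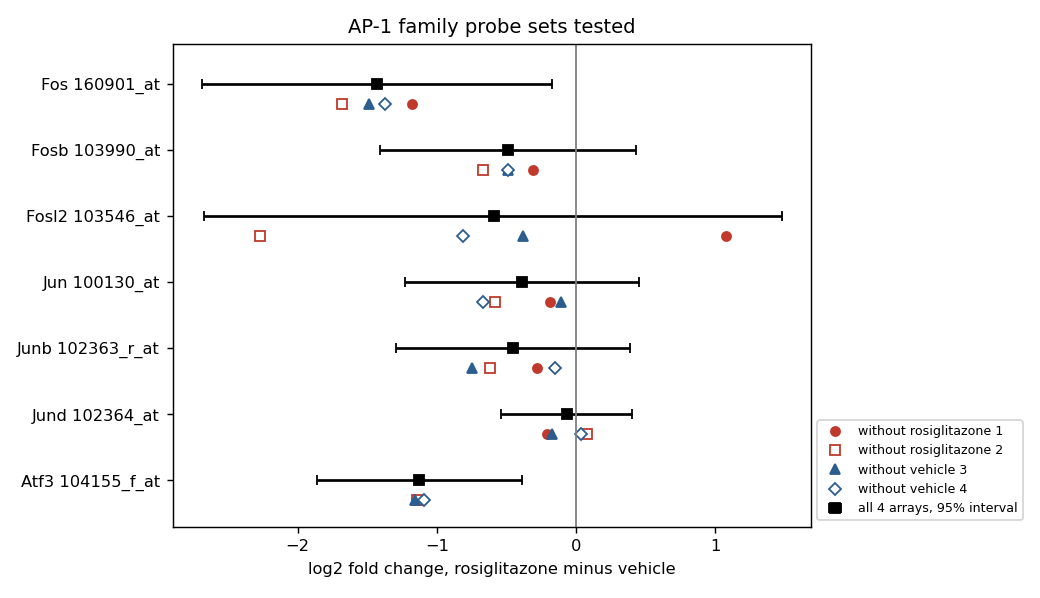
Log2 fold change (rosiglitazone minus vehicle) of the 7 AP-1 family probe sets tested, as a black square with its 95% interval from limma, and below it the value with each array left out. The values of Atf3 lie between -1.16 and -1.09 whichever array is left out, while those of Fosl2 run from -2.27 to 1.08.

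The remaining members were below the filter. Maff, a small Maf protein that lacks a transactivation domain, read 956 and 173 with rosiglitazone and 404 and 358 with vehicle on 100302_at. As with Fosl2, the rosiglitazone arrays bracketed the vehicle arrays, but here rosiglitazone replicate 1 was the high one. Batf, a factor of lymphocytes and myeloid cells that pairs with Jun proteins and with interferon regulatory factors, read 161 and 214 with rosiglitazone and 491 and 203 with vehicle on 93444_at. Its groups overlapped, and only vehicle replicate 3 stood apart. With the filter dropped, all 14 probe sets could be tested, and the unadjusted p was under 0.05 for the same 2 probe sets, of Atf3 and Fos, with a smallest adjusted p of 0.295 in limma.

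The pattern of Atf3 104155_f_at over the 4 arrays was most like those of Ptgis, Ccn1, Cnn3, Irf9 and Rdh13, by Euclidean distance between log2 intensities centred per probe set. Ptgis, which encodes prostacyclin synthase, was the nearest at a distance of 0.053, with 2918 and 3069 under rosiglitazone and 6604 and 6828 under vehicle. Ccn1, a matricellular protein gene that is itself immediate-early, followed at 0.093, with 416 and 457 against 880 and 970. Cnn3, a calponin, was at 0.11, and Irf9 and Rdh13 were both at 0.13. With only 4 arrays, many probe sets can share such a shape, and none of the 5 passed over all probe sets (adjusted p from 0.0788 for Cnn3 to 0.533 for Ccn1 in limma).

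Genes around AP-1 were described by lists that hold no member. Among other immediate-early genes, 18 of 23 were tested, 17 of them were below 0 and the median log2 fold change was -0.63, lower than the -0.49 of the AP-1 probe sets by a difference that was not tested. The groups did not overlap for 13 of these 18, all lower, against 21.8% lower and 19.0% higher over all probe sets. Gadd45b, induced by growth arrest and DNA damage, passed the threshold on its brightest probe set, 161666_f_at, with 86 and 274 under rosiglitazone and 3373 and 4444 under vehicle, and was the only gene of the list to do so (limma, adjusted p = 0.00768). Its log2 fold change was -4.26 with 1 array at the floor. The other Gadd45b probe set, 102779_at, read 195 and 671 against 1820 and 1502, a smaller log2 fold change of -2.19 that did not pass (adjusted p = 0.22). Both Gadd45b probe sets were above the filter only through their vehicle arrays. The call on 161666_f_at was lost without vehicle replicate 3 (-4.46, adjusted p = 0.545) and without vehicle replicate 4 (-4.07, adjusted p = 0.672), and the number called in the list was then 0, against 3 without rosiglitazone replicate 2. It was also lost without the filter (adjusted p = 0.293), with a floor at the 40th percentile, which lets every probe set through the filter too (0.31), and without the intensity trend (0.108). Ier3, Rhob and Zfp36 followed, at -2.42, -0.88 and -1.66, and did not pass (adjusted p from 0.0687 for Ier3 to 0.221 for Zfp36). Not all genes of this kind lay lower, since Egr1, the zinc finger factor that serum induces together with Fos, read 2048 and 2005 against 1747 and 2264.

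The list of AP-1 target genes had 15 of 28 tested, 13 below 0 and a median of -0.36, which moved to -0.18 when rosiglitazone replicate 2 was left out, with 8 of 15 then below 0, and to -0.55 without rosiglitazone replicate 1. No target (0) passed in limma, and 3 had an unadjusted p under 0.05, all lower. Mt2, a metallothionein, read 15994 and 19492 with rosiglitazone, against 31447 and 33042 with vehicle, a log2 fold change of -0.87 (adjusted p = 0.116). Mmp9, a gelatinase that neutrophils also store, read 101 and 187 against 1260 and 1062 (-2.80 with 1 array at the floor, adjusted p = 0.173). Dcn, the proteoglycan decorin, had -0.59 and Ptgs2, the inducible cyclooxygenase, had -1.76 with 1 array at the floor (adjusted p = 0.38 and 0.476). Mmp9 and Ptgs2 passed the filter only through their vehicle arrays, and with no floor they fell under it. The list then had 13 genes tested, 11 below 0, a median of -0.32 and 2 with an unadjusted p under 0.05 in limma. For these targets the groups did not overlap in 6 of 15, all lower, against 21.8% lower over all probe sets.

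Related basic leucine zipper factors had 19 of 31 tested, 15 of them below 0, with a median of -0.38. In limma 0 of them passed, and at an unadjusted p under 0.05 there was 1 lower and 1 higher, the latter against 5.12% of all probe sets. The lower one was Cebpd, an acute-phase factor, with 2142 and 2191 against 2888 and 4077 (-0.66, adjusted p = 0.448). The higher one was Cebpa, a factor of adipocyte and myeloid differentiation, with 16627 and 19222 against 12623 and 12382 (0.52, adjusted p = 0.384). Nfe2l2, the oxidative stress factor Nrf2, had -0.63 and Bach1, a haem-sensing repressor, had -1.10 (adjusted p = 0.54 and 0.543). Cebpb, a partner of several AP-1 proteins, was uneven at 4190 and 9770 against 5492 and 7795.

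The MAP kinases that carry signals to Fos and Jun lay on both sides of 0. Of 31 genes, 15 were tested, with 8 below 0, 7 above 0 and a median of -0.04 that turned to 0.23 without rosiglitazone replicate 1. In limma 0 passed and 0 had an unadjusted p under 0.05. Groups did not overlap for 3 of the 15, higher, and 4, lower, against 19.0% and 21.8% of all probe sets. Mapk8, the Jun N-terminal kinase JNK1, was 1 of the 3. It read 599 and 962 with rosiglitazone, against 405 and 176 with vehicle, a log2 fold change of 1.51 (adjusted p = 0.543). Map3k4, a kinase upstream of JNK and p38, had 1.64 with 1 vehicle array at the floor, Map2k1 had 0.74 and Map2k3 had 0.48, and none of these passed (adjusted p from 0.526 to 0.685). Mapk8 and Map3k4 passed the filter only through their rosiglitazone arrays. Map2k3 ran the other way on 93315_at, with 1740 and 2703 against 3310 and 2711 (-0.47, adjusted p = 0.638).

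Regulators of Fos and Jun transcription had 9 of 16 tested, with 4 below 0, a median of 0.18 and 0 past the threshold in limma. Leaving out rosiglitazone replicate 2 made that median 0.063, and leaving out replicate 1 of that group made it 0.30. At an unadjusted p under 0.05, 2 were lower. They were Mef2a, a factor that binds the Jun promoter, with 1937 and 1232 against 3406 and 3847 (-1.23, adjusted p = 0.164), and Sp1, a general promoter factor, with 2055 and 3230 against 5577 and 4275 (-0.92, adjusted p = 0.293). The ternary complex factors Elk1 and Elk3, which act with serum response factor on Fos, had 0.38 and 0.43 (adjusted p = 0.516 and 0.48). Mrtfa, a coactivator of serum response factor, had 0.60 and Mef2b had 0.47 (adjusted p = 0.688 and 0.691). Cofactors and turnover genes of AP-1 had 9 of 18 tested, 6 below 0 and a median of -0.20, which was -0.024 without rosiglitazone replicate 1, -0.11 without rosiglitazone replicate 2 and -0.10 without vehicle replicate 3. None (0) passed in limma or had an unadjusted p under 0.05. Their smallest p values were those of Ets2 (-0.62), Nfatc3 (0.71), Irf8 (-0.72) and Ncoa1 (0.37), with adjusted p from 0.562 to 0.834.

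**Figure D3:**
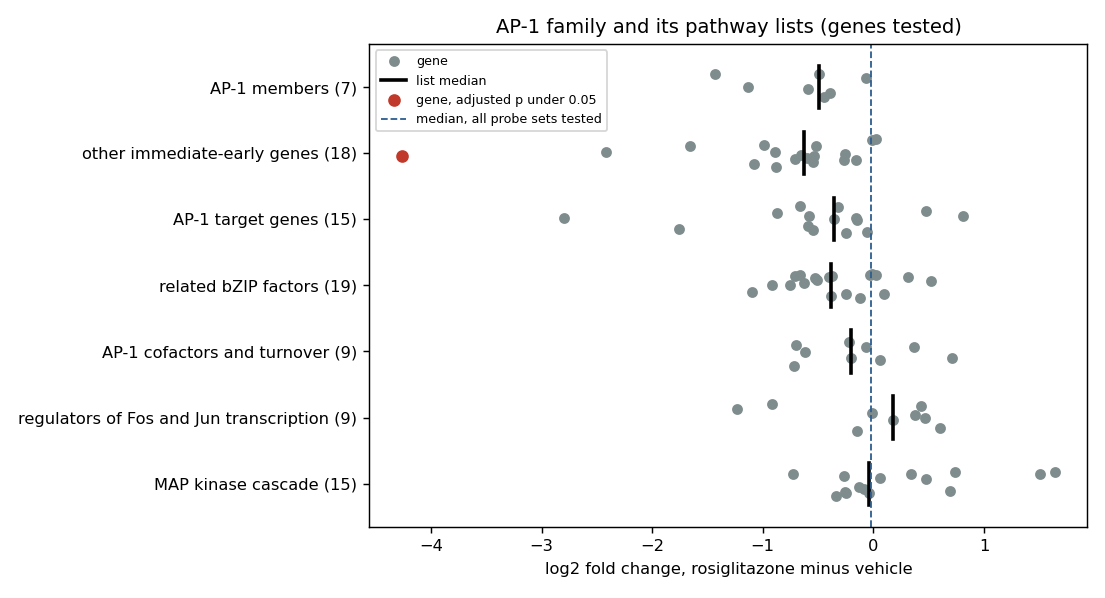
Log2 fold change (rosiglitazone minus vehicle) of each gene tested, on its brightest probe set, for the AP-1 members and 6 pathway lists, with the list median as a black bar and the median of all probe sets tested, -0.024, as a dashed line. The bars of the AP-1 members and the other immediate-early genes lie at -0.49 and -0.63, that of the MAP kinases at -0.04, and Gadd45b is the single gene past the threshold.

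Cell type markers differed between the same arrays. Smooth muscle markers were clearly present, with a summed intensity over 9 genes of 62070 and 70225 under rosiglitazone against 126987 and 151334 under vehicle. Fat markers were bright too. Brown adipocyte sums were larger than those of smooth muscle on every array. Adipoq, a white adipocyte marker, alone read 165554 and 195068 against 125080 and 136822. The arrays thus carried signal of fat as well as vessel wall, and such sums do not measure the share of cells. The macrophage sums given above covered 14 genes. Neutrophil markers summed to 7415 and 8299 against 129144 and 196417 over 10 genes. On their brightest probe sets, S100a9, S100a8, Cd14 and Tagln passed lower, at -5.57, -6.39, -2.93 and -1.26 (limma, adjusted p = 9.5e-06, 9.84e-05, 0.000145 and 0.0455). Fabp3, from the brown adipocyte list, passed higher at 1.55 (limma, adjusted p = 0.024). In that list 6 of 7 genes tested were above 0, and Dio2 was lower without overlap, at 2979 and 4037 against 4378 and 4313. Without the filter none of S100a9, S100a8, Cd14, Tagln and Fabp3 passed (limma, adjusted p from 0.0863 for Cd14 to 0.295 for Tagln). With the floor at the 40th percentile none passed either (0.0576 for Cd14 to 0.381 for Tagln), and without the intensity trend only S100a9 did (0.0214). Tagln was also lost with the floor at the 10th percentile (0.0558), with no floor (0.0583) and when centred on array medians (0.0933). Of 8 neutrophil genes tested, 4 were lower without overlap, against 21.8% of all probe sets. The other 4 overlapped, among them Ltf at 0.12 and Cxcr2 at -0.09. Without S100a8 and S100a9 the neutrophil sums were 5724 and 5217 against 7716 and 8966. These sums take the brightest probe set of each gene, and for Lcn2, a lipocalin of neutrophil granules, another probe set, 160564_at, read 145 and 57, under the floor, against 3982 and 5054. Lcn2 160564_at was above the filter only through its vehicle arrays. That probe set passed (limma, adjusted p = 0.00214), a call lost without vehicle replicate 3 (adjusted p = 0.527), without vehicle replicate 4 (0.672), without the filter (0.284) and with the floor at the 40th percentile (0.289). Smooth muscle, fibroblast, macrophage, neutrophil and lymphocyte sums were lower on both rosiglitazone arrays, and brown adipocyte sums, given below, were higher. Any gene lower in that group is lower on the same arrays, and a link to the AP-1 values was not tested.

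Fibroblast markers summed to 87999 and 103750 against 132576 and 157559, and lymphocyte markers to 9486 and 8375 against 10937 and 10056. Dcn, which is also on the AP-1 target list, supplied 67401 and 80022 against 98447 and 124712 of the fibroblast sums. Col1a2 read 5593 and 7135 against 13123 and 11486 on its brightest probe set. On 161156_r_at it ran the other way, with 5761 and 6483 against 4262 and 4320. With the 2 brightest genes of each list left out, sums stayed lower with rosiglitazone for smooth muscle (19257 and 26067 against 40223 and 41586), fibroblast (15005 and 16593 against 21006 and 21361), macrophage (16019 and 15362 against 29145 and 30006) and lymphocyte markers (2908 and 2088 against 4277 and 4086). Brown adipocyte markers ran the other way, at 403657 and 435609 against 292706 and 287254, and at 65033 and 76067 against 49013 and 54417 without their 2 brightest genes.

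The direction of 3 further lists depended on their brightest genes. White adipocyte sums were 175740 and 207873 against 137570 and 149779, but without Adipoq and Fabp4 they were lower with rosiglitazone, at 6031 and 6390 against 6738 and 6952. Endothelial sums overlapped, at 15097 and 17231 against 16467 and 20505, and without Vwf and Cdh5 they were higher, at 8905 and 8695 against 7300 and 7803. Erythrocyte sums overlapped too, at 507470 and 669832 against 564339 and 658452, and without the globin genes Hba-a1 and Hbb-b2 they were lower, at 17714 and 23187 against 35653 and 32265. Skeletal muscle markers read 13351 and 13641 against 12634 and 12626, and overlapped without their 2 brightest genes, at 2856 and 3285 against 2449 and 3198. In every list 0 markers lay under the floor on all 4 arrays. The part of these cell types in the AP-1 values was not tested. The 3′ to 5′ signal ratio, a measure of RNA integrity, was 7.74 and 9.62 for actin with rosiglitazone and 8.88 and 11.9 with vehicle, and 8.79 and 10.8 against 11.1 and 11.1 for Gapdh, and its part was not tested either.

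**Figure D4:**
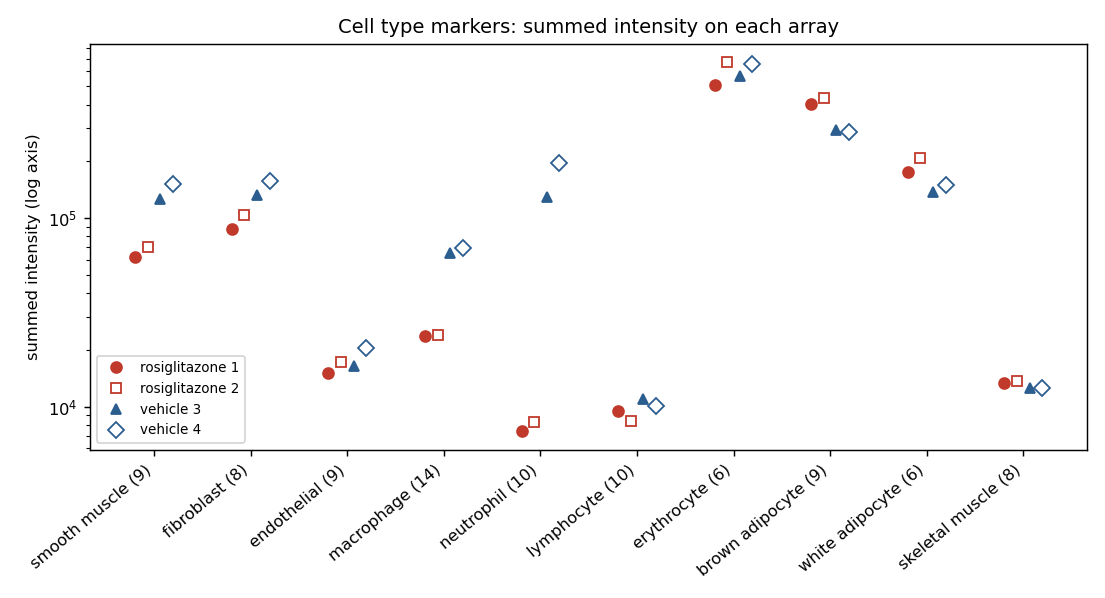
Summed intensity (log axis, deposited units) of the markers of each cell type on each array, with the number of genes in brackets. The rosiglitazone arrays lie below the vehicle arrays for smooth muscle, fibroblast, macrophage, neutrophil and lymphocyte markers, furthest for neutrophils at 7415 and 8299 against 129144 and 196417, and above them for brown adipocyte markers. The white adipocyte sums lie above as well, but below without Adipoq and Fabp4, at 6031 and 6390 against 6738 and 6952.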

How the data were processed

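Total RNA from mouse aorta had been hybridised to Affymetrix MG-U74Av2 arrays, 2 per group. The deposited values are intensities on a linear scale, 1 per probe set and array, made with software not given in the sources used here. Their mean with 2% trimmed at each end was 1501 on each array, and array medians differed by at most 0.13 on the log2 scale, under the limit of 0.2 for centring. Probe sets were named from the platform's table, with symbols updated by gene identifier. Of 12488 probe sets, 66 controls were left out. Values under the 20th percentile (148) were raised to it, log2 was taken, and the 7134 probe sets with a mean at or above the 40th percentile (414) were tested with limma 3.58.1 under R 4.3.3, using lmFit and eBayes with the trend on intensity. Tests were two-sided, and p-values were adjusted by Benjamini-Hochberg over all 7134 with a threshold of 0.05. The procedure was run on simulated data, where planted shifts were recovered in size on average. Those shifts were larger than any member's estimate from all 4 arrays, so smaller ones were not covered. An exact permutation of 4 arrays cannot give a p below 0.333. Sequence windows came from RefSeq, with 9 of 10 members matched. No sequencing depth applies, and the number of arrays limits the precision.

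The members and lists were chosen with earlier results of these data known. Every member was named, with up to 4 genes of each pathway list by smallest p, genes past the threshold, the marker sums with up to 2 genes of each marker list, and the 5 genes nearest in pattern to the member with the smallest p. Egr1, Cebpb, Elk1, Elk3, Lcn2, Ltf, Cxcr2, Dio2, the genes left out of marker sums and the second probe sets of Gadd45b, Map2k3 and Col1a2 were added after their values were seen. Marker sums add intensities of different probe sets and so weigh bright ones most. Alternatives covered the floor, the filter, the scaling, the intensity trend and each array left out.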

Additional observations from a re-analysis of the deposited data

How the results depend on the processing

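No paired analysis was possible because the groups share no replicate number. Over 11 alternatives the number of AP-1 probe sets past the threshold stayed at 0. The 7 tested gave 77 alternative fold changes, of which 73 kept their direction. The 4 that did not were those of Fosl2 without rosiglitazone replicate 1 (1.08) and of Jund centred on array medians (0.015), without rosiglitazone replicate 2 (0.077) and without vehicle replicate 4 (0.033). Over all probe sets the 26 calls became 0 with the floor at the 40th percentile, which also let all 12422 probe sets through the filter, 17 with no floor, 0 with no filter on dim probe sets and 7 with no intensity trend, and 1 to 78 with 1 array left out. At an unadjusted p under 0.05 there were 933, 766, 1202 and 593 under the first 4 of these settings. The cause was not tested. With 1 array left out, Fosl2 ranged from -2.27 to 1.08 and Jund from -0.21 to 0.077. Without detection calls it is unknown which dim probe sets were above background, and this limits Fosl1, Maff, Batf and the dimmer probe sets of Fos, Junb and Atf3.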
